A study of Mus musculus with 2 samples.

Results

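Mir191 and Mir425 are neighbouring microRNA genes on the plus strand of mouse chromosome 9, and Gm24083 is a microRNA gene annotated on the minus strand opposite Mir191. These 3 genes were chosen by their GENCODE M21 symbols among the 2202 microRNA genes in the deposited count tables, and all 3 were found. MicroRNA-seq was made from hippocampal RNA of B6CASTF1/J mice, the first-generation cross of C57BL/6J and CAST/EiJ, which were females aged 14 days. There was 1 group with 2 biological replicates, each labelled with 3 females, so each library stood for a pool of animals, and there was no contrast between conditions. All animals shared strain, sex and age and carried no labelled transgene, deletion or treatment. The labels call the tissue a layer of hippocampus and do not name the layer, and they restrict the RNA to sizes under 30.

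A microRNA is cut from a hairpin in a longer primary transcript. Each hairpin can give a product from its 5′ arm (5p) and one from its 3′ arm (3p). The seed, bases 2 to 8 of a mature microRNA, is the stretch that pairs with messenger RNAs. In human cells the miR-191 and miR-425 hairpins lie close together in an intron of DALRD3, which encodes a protein with a DALR anticodon-binding domain, and are processed from a common transcript. miR-191 is abundant in many tissues and is widely used as a reference in quantitative PCR, often beside miR-425. In mouse hippocampal neurons miR-191 has been linked to the remodelling of dendritic spines in long-term depression.

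The mature sequences are shown because the counts are per hairpin gene and do not tell the arms apart. They are from RefSeq on build GRCm38.p6, 5′ to 3′, with the seed in capitals. RefSeq entries were found for 2 of the 3 genes.
miR-191-5p: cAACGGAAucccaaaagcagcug
miR-191-3p: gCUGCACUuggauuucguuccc
miR-425-5p: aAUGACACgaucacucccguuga
miR-425-3p: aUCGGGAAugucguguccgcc
miR-489-3p: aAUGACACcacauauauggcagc
None of the 4 seeds of Mir191 and Mir425 was shared between the neighbours. The seeds of miR-191-5p, miR-191-3p and miR-425-3p each occurred in 1 of the 1738 mature sequences of the table. The seed of miR-425-5p occurred in 2, the other being miR-489-3p from Mir489 on chromosome 6. Mir489 had 0 counts in both libraries, which was read as a floor of 3 counts. This floor is 0.630 CPM (counts per 1000000 sense counts) in replicate 1 and 1.05 CPM in replicate 2. Mir425 thus supplied every assigned count for a hairpin with this seed.

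The hairpins and the opposite gene are shown because Gm24083 lies over the whole of Mir191. Capitals mark the mature arms in the hairpins, and in Gm24083 they mark the stretch complementary to the Mir191 hairpin.
Mir191 hairpin: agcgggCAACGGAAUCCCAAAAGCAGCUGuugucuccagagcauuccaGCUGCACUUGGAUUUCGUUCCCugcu
Mir425 hairpin: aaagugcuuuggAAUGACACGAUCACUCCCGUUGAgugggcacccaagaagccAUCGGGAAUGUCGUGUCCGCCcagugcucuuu
Gm24083: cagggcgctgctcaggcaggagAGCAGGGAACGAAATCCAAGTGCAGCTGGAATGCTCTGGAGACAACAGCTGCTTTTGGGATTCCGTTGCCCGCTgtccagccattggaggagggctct
Mir191 (ENSMUSG00000105497.1) spans chr9:108568319-108568392, plus strand, and its hairpin has 74 bases. Mir425 (ENSMUSG00000065579.1) spans chr9:108568777-108568861, plus strand, with 85 bases, and starts 384 bases after the end of Mir191. Gm24083 (ENSMUSG00000092915.1) spans chr9:108568295-108568414, minus strand, with 120 bases. All 74 bases of Mir191 lie inside Gm24083 as their reverse complement, flanked by 22 and 24 further bases. All coordinates are on GRCm38. The RefSeq and M21 sequences of both hairpins were identical, and both are of the C57BL/6J reference, since variants of CAST/EiJ were not examined. The predicted minimum free energy was -35.0 kcal/mol for the Mir191 hairpin, -31.7 kcal/mol for the Mir425 hairpin and -58.6 kcal/mol for the longer Gm24083 transcript.

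In the M21 annotation neither microRNA lies within Dalrd3. The end of Mir425 is 1024 bases before the first base of Dalrd3, which lies downstream on the same strand. Both hairpins instead lie within 4833445I07Rik (ENSMUSG00000103103.1), a long non-coding RNA gene at chr9:108567533-108569174 on the plus strand. One of its transcripts has 1 exon, which contains both hairpins and the span of Gm24083. The other has 2 exons, and Mir191 falls in the intron between them, while Mir425 starts after the last exon with 2 bases between.

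**Figure D1:**
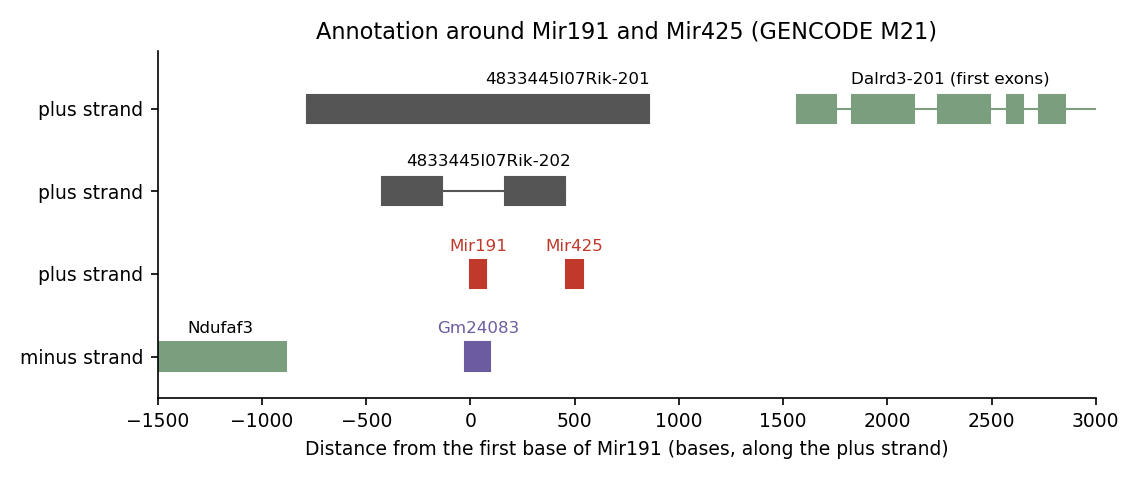
Genes and transcripts around Mir191 in GENCODE M21, by distance in bases from the first base of Mir191 along the plus strand. Boxes are exons for the 3 transcripts and whole gene spans for Mir191, Mir425, Gm24083 and Ndufaf3, and Mir191 and Mir425 lie inside the single-exon transcript of 4833445I07Rik and upstream of Dalrd3.

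Reads counted on the sense strand of microRNA genes summed to 4764797 in replicate 1 and 2852269 in replicate 2, and 36.1% and 36.4% of all reads were assigned in this way. Multi-mapping reads, 40.8% and 37.1% of all reads, were assigned to no gene. A gene was called detected at 10 or more counts in both libraries, which 409 of 2202 genes (18.6%) reached. The list of neuron-enriched microRNAs summed to 26534 CPM in replicate 1 and 28438 CPM in replicate 2, with 12 of 15 genes detected. The 3 Mir124a genes, which make one neuronal mature sequence, had 0 to 18 counts each, and reads that mapped to several places were counted for no gene. The hepatocyte microRNA Mir122 stood at 41.1 and 25.6 CPM. Of 5 muscle microRNAs 1 was detected, Mir206 with 353 and 98 counts in replicates 1 and 2. The others were numbered copies of Mir1a and Mir133a with 0 or 1 counts, and each mature sequence is made at another locus. Their low counts therefore do not show absence. Intervals and floors express counting error alone. The labels describe no molecular identifiers by which PCR copies could be collapsed, so the intervals can be too narrow even for this error.

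By assigned reads, Mir191 was among the most abundant microRNA genes of these libraries. Multi-mapping reads are left out of these levels and ranks, so microRNAs made at several loci can rank too low. It had 43558 sense counts in replicate 1 and 30210 in replicate 2. These were 9142 CPM (exact 95% interval 9056 to 9227) and 10592 CPM (10473 to 10711), or 0.914% and 1.06% of all counts assigned to microRNA genes. It ranked 21st and 20th of 2202 genes in replicates 1 and 2, and its mean was 9867 ± 1025 CPM (SD, n = 2). CPM is not divided by length here, since the reads were taken to come from mature products, though read positions were not examined. In the RefSeq table mature products were 20 to 24 bases long from the 5th to the 95th percentile.

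Mir425 was detected at a lower level in both libraries. It had 3766 sense counts in replicate 1 and 2967 in replicate 2. These were 790 CPM (765 to 816) and 1040 CPM (1003 to 1078), and the gene ranked 119th and 103rd. Its mean was 915 ± 177 CPM (SD, n = 2). Mir191 and Mir425 were both detected, against 18.6% of all genes.

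No sense read was assigned to Gm24083 in either library. A count of 0 allowed up to 0.630 CPM in replicate 1 and 1.05 CPM in replicate 2. Gm24083 was therefore not detectable at this depth, in libraries where Mir191 on the other strand had 43558 and 30210 counts.

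The 3 deposited count columns gave opposite pictures of Mir191 and Gm24083. Mir191 had 0 counts on the opposite strand and 0 counts in the unstranded column in both libraries. Gm24083 had 43558 and 30210 counts in its opposite-strand column in replicates 1 and 2, which are exactly the sense counts of Mir191. In the unstranded column Gm24083 also had 0 counts in both libraries. Mir425, which no microRNA gene overlaps, had 1 and 0 opposite-strand counts, and its unstranded counts of 3767 and 2967 were the sums of its strand counts. The locus therefore read as Mir191 and Mir425 with strand, and as Mir425 alone without it.

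**Figure D2:**
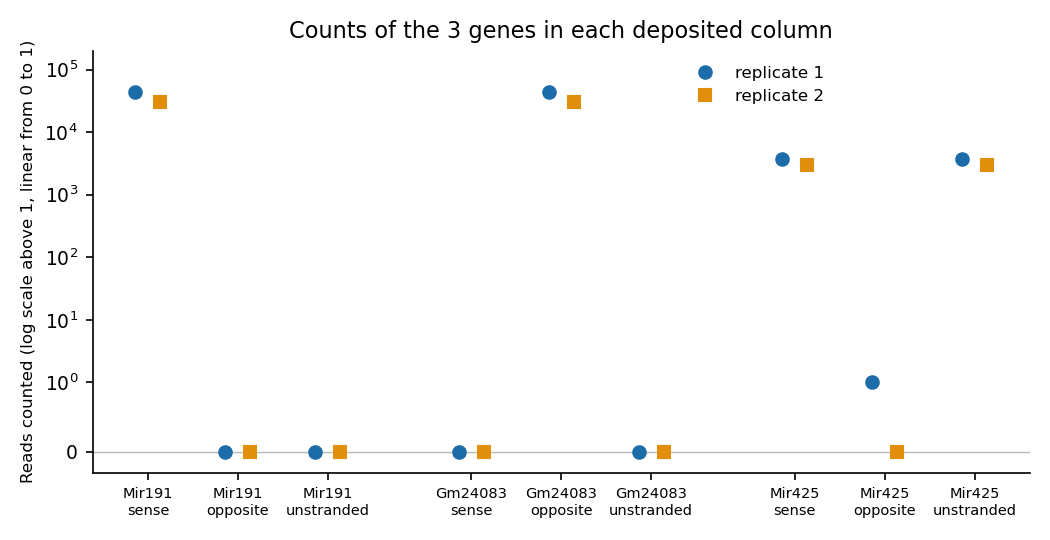
Reads counted for each gene in the sense, opposite-strand and unstranded columns, on a scale that is logarithmic above 1 and linear from 0 to 1, with circles for replicate 1 and squares for replicate 2. The 43558 and 30210 sense reads of Mir191 reappear in the opposite-strand column of Gm24083, and both genes stand at 0 in the unstranded column.

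Mir191 and Gm24083 were 1 of 32 pairs of microRNA genes that overlap on opposite strands in M21. With strand, 26 of these pairs had 20 or more sense counts over both libraries, and these pairs held 6.26% of all sense counts in replicate 1 and 6.36% in replicate 2. Without strand, 29 of their 298205 reads in replicate 1 and 17 of their 181409 reads in replicate 2 were still assigned to a gene, which is 0.00972% and 0.00937%. The unstranded column listed 298200 reads in replicate 1 and 181401 in replicate 2 as ambiguous between genes, and the sense counts of Mir191 equalled 14.6% and 16.7% of these.

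By sense counts Mir191 and Gm24083 formed the third largest of the pairs. Mirlet7e and Gm25927 had 98296 and 40628 sense counts in replicates 1 and 2, Mir126a and Mir126b had 47484 and 48102, and Mir409 and Gm24321 had 26175 and 15971. Mirlet7e is a let-7 microRNA of maturing neural tissue, Mir126a an endothelial microRNA and Mir409 a member of the imprinted Dlk1-Dio3 array. In each of these pairs all sense counts lay in the first-named gene. Over the 26 pairs, the less abundant gene had 0 sense counts in 19 pairs in replicate 1 and in 21 pairs in replicate 2. The share of the less abundant gene reached 36.4% in replicate 1 and 29.7% in replicate 2, both in the pair of Mir24-1 and Mir3074-1. These shares are uncertain, because the mature sequence of Mir24-1 is also made at another locus and multi-mapping reads were left out. Gm24083 thus belonged with most of the opposite genes, and not with Mir3074-1, which had 106 and 88 sense counts of its own.

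**Figure D3:**
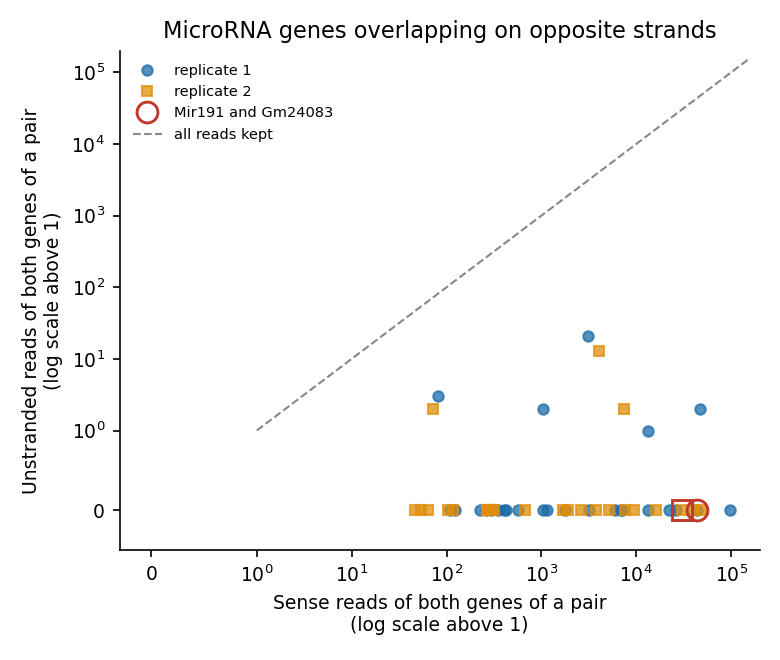
Unstranded reads against sense reads of both genes of each of 26 overlapping pairs, on axes that are logarithmic above 1, with circles for replicate 1 and squares for replicate 2. Nearly all pairs lie at or near 0 unstranded reads, far below the line on which all reads are kept, and Mir191 with Gm24083 (outlined) lies at 0 in both libraries.

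Few bases of the 3 genes occur in other annotated transcripts. Among 141767 M21 transcripts, leaving out the 3 genes and 4833445I07Rik, no other gene shared a run of 16 bases with the sense strand of Mir191. The complement of Mir191 shared at most 17 bases with another gene, and Mir425 shared at most 17 bases on its own strand. Gm24083 shared up to 20 bases with genes that are not microRNAs. No other microRNA gene shared a run of 16 bases with any of the 3 on either strand, so no near-identical microRNA copy is annotated that could have split their reads. The rest of the genome was not searched.

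Mir191 exceeded its neighbour Mir425 in both libraries. The ratio of their sense counts was 11.6 in replicate 1 (11.2 to 12.0, exact 95%) and 10.2 in replicate 2 (9.80 to 10.6), a mean of 10.9 ± 0.979 (SD, n = 2). On the log2 scale this was 3.44 ± 0.13. Both 5p products have 23 bases, and per base of hairpin the ratio was 13.3 and 11.7. This ratio does not depend on library size, but it is a ratio of reads. How evenly the different sequences were captured was not measured. The 2 counting intervals did not overlap, so the ratio differed between the libraries by more than counting error, by 0.18 on the log2 scale.

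Unequal levels were common among neighbouring microRNA genes. Of 97 same-strand pairs of adjacent microRNA genes within 10 kb, each gene with 20 or more counts over both libraries, the more abundant gene exceeded the other by a median of 9.04-fold in mean CPM. Mir191 exceeded Mir425 by 10.8-fold on this measure, and 44 pairs were more unequal and 52 less so. Such pairs share libraries and sometimes a gene, and 42 of them lie on chromosome 12 with the Dlk1-Dio3 array, so these counts are a description. Multi-mapping reads were counted for no gene, so a gene whose mature sequence is also made at another locus, such as Mirlet7a-2, can be counted too low. The part of such genes in the median fold was not tested.

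Both genes were lower in replicate 1 than in replicate 2. With library sizes scaled by TMM, a trimmed mean of gene ratios, the log2 ratio of replicate 1 to replicate 2 was -0.33 (95% counting interval -0.36 to -0.31) for Mir191, which is 1.26-fold higher in replicate 2. For Mir425 it was -0.52 (-0.59 to -0.45), or 1.43-fold higher in replicate 2. Both passed the exact two-sided binomial test of reads with Benjamini-Hochberg adjustment over 450 genes, with adjusted p = 2.5e-206 and 6.7e-47, a test that 64.9% of those genes passed. Gm24083, with no counts, was not tested. The test compares these 2 libraries and not conditions, and the animals and the library preparation cannot be told apart as its source.

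These calls were read against the background of all genes. Of the 450 genes whose counts summed to 20 or more, 292 (64.9%) passed, with 144 (32.0%) higher and 148 (32.9%) lower in replicate 1. With total counts as library sizes, 168 were higher and 127 lower in replicate 1, so the split between directions moved with the scaling. The median absolute log2 ratio over the 450 genes was 0.51, and 156 genes had a smaller one than Mir191 and 293 a larger one. For Mir425, 231 were smaller and 218 larger. Among the 139 genes with a mean of at least 500 CPM, the median absolute log2 ratio was 0.36. Mir191 lay below that value and Mir425 above it.

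Among microRNAs commonly used as references in quantitative PCR, Mir191 and Mir425 differed between the libraries by more than the median of the list. All 25 genes of this list were tested, and 8 were higher and 12 lower in replicate 1, while 5 did not pass. Over all genes tested 64.9% passed, with 32.0% higher and 32.9% lower. The share of the list that was higher equalled the background. The share that was lower, 12 of 25, and the share that passed were above it. This background includes many genes with few reads, which pass less readily. Where both counts together reached 200, 239 of 273 genes passed, 122 higher and 117 lower in replicate 1. Against these genes the share of the list that passed was smaller, and so was the share that was higher. The share that was lower remained larger. The median absolute log2 ratio of the list was 0.28, against 0.51 over all genes tested. Mir191 had 14 list members below its absolute ratio and 10 above it, and Mir425 had 18 below and 6 above. Those above Mir425 were Mir423, Mir24-1, Mir24-2, Mir103-1, Mir26a-1 and Mir103-2. All of them but Mir423 are copies whose mature sequence is also made at another locus, so the placing of Mir425 against them is uncertain. Mir361 (log2 ratio -0.06), Mir93 (0.11), Mir151 (0.12) and Mirlet7d (0.13) lay closer to 0 than either gene. Mir423, another common reference, had 1646 and 2835 CPM in replicates 1 and 2 and a log2 ratio of -0.91. The largest difference was that of Mir103-2, at -2.07 with 71 and 164 counts, and it is uncertain because the same mature sequence is made at another locus, as for the listed copies of Mir103, Mir16, Mir24, Mir26a and Mirlet7a. Of the 25 genes, 4 (Mir191, Mir30e, Mir24-1 and Mir24-2) have another microRNA gene across from them, and all 4 had 0 counts in both libraries when strand was ignored.

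**Figure D4:**
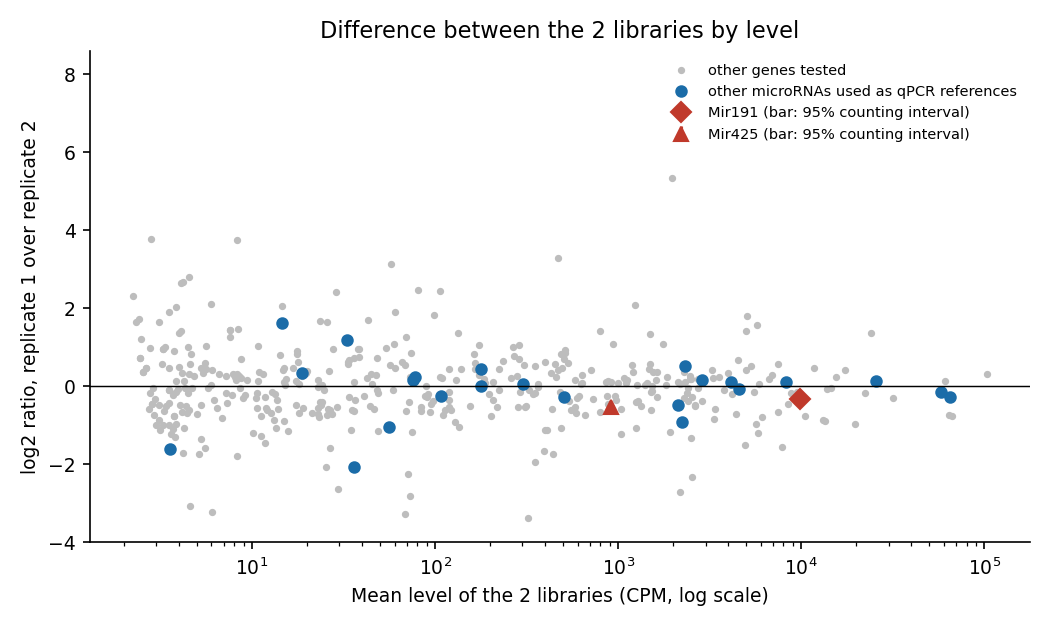
Log2 ratio of replicate 1 to replicate 2 against mean level in CPM on a log axis, for 450 genes, with microRNAs used as qPCR references in blue and Mir191 and Mir425 in red with their 95% counting intervals, which are mostly hidden by the symbols. Both red points lie below 0, at -0.33 and -0.52, within the spread of genes at like levels.

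The log2 ratios of Mir191 and Mir425 differed by 0.18. Over the 97 same-strand pairs the median was 0.59, and 15 pairs had a smaller difference and 81 a larger one. Mir191 and Mir425 had the same sign, as did 53 of the 97 pairs in all (54.6%). The 4 pairs whose less abundant gene was highest gave 0.57 for Mir433 and Mir127, 1.37 for Mir99b and Mirlet7e, 0.16 for Mirlet7e and Mir125a and 0.63 for Mir379 and Mir411. Outside chromosome 12 the median over 55 pairs was 0.66, and 9 pairs had a smaller difference than Mir191 and Mir425. Where each gene had a summed count of at least 200, the median over 77 pairs was 0.58, with 15 smaller differences and 61 larger. Genes with few counts, and copies whose mature sequence is also made at another locus, can widen these differences. These are descriptions of 2 libraries, with no test.

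**Figure D5:**
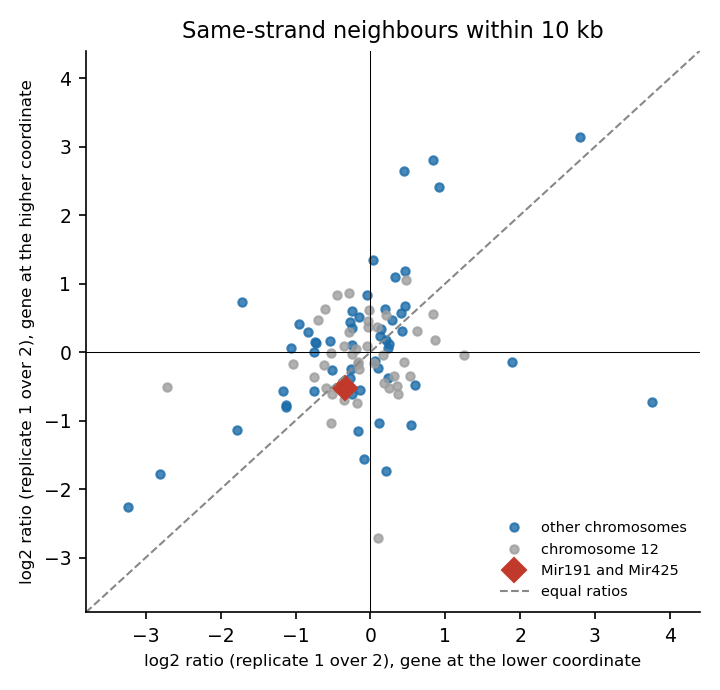
Log2 ratio of replicate 1 to replicate 2 for the gene at the higher coordinate against that of its same-strand neighbour, for 97 adjacent pairs within 10 kb, with pairs on chromosome 12 in grey. Mir191 and Mir425 (red) lie near the line of equal ratios with a difference of 0.18, while other pairs differ by up to 4.48. Among pairs whose genes each have a summed count of at least 200, the largest difference is 2.81.

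The genes most like Mir191 in level in both libraries, by Euclidean distance of log2(CPM + 1), were Mir324, Mir541 and Mir100. Mir324 had 9449 and 9617 CPM in replicates 1 and 2 and was the gene just below Mir191 in mean level. Mir541, of the Dlk1-Dio3 array, had 8683 and 8979 CPM. Mir100 had 8195 and 12683 CPM and was the gene just above in mean, at 10439 ± 3174 CPM (SD, n = 2). The order of Mir100, Mir191 and Mir324 was reversed in replicate 1, where Mir324 was highest and Mir100 lowest, so these neighbours in rank did not differ beyond the spread of the libraries.

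The genes most like Mir425 were Mir1249, Mir300 and Mir181a-1. Mir1249 had 779 and 979 CPM in replicates 1 and 2, Mir300 had 899 and 1055 CPM, and Mir181a-1 had 833 and 911 CPM. Mir181a-1 is uncertain because the same mature sequence is made at another locus. In mean level Mir872 stood just above Mir425 with 1314 and 567 CPM, and Mir150 just below with 991 and 837 CPM. Mir872 and Mir150 were higher in replicate 1, unlike Mir425, so this order too rested on means of values that crossed between libraries.

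Some markers of cell types differed between the libraries in the same direction as Mir191 and Mir425, and their part in that difference was not tested. The counts of genes past the test in these short lists stand beside 64.9% over all genes tested, with 32.0% higher and 32.9% lower in replicate 1. Red blood cell microRNAs summed to 290 CPM in replicate 1 and 722 CPM in replicate 2. This came from Mir451a, a microRNA that red cells carry in quantity, with 217 and 663 CPM and a log2 ratio of -1.73, while Mir144 at 0.21 and Mir486 at 0.17 did not pass. All 3 listed red cell genes were detected and none stood at 0. Oligodendrocyte markers summed to 1928 and 3198 CPM in replicates 1 and 2, with 2 of 3 genes lower in replicate 1 and 1 not past the test. Vessel markers summed to 15962 and 20349 CPM, with Mir126a lower (log2 ratio -0.88) and the other 2 of 3 genes higher in replicate 1. Of the 12 neuron markers tested, 3 were higher and 7 lower in replicate 1. In the neuron and oligodendrocyte lists, numbered copies such as those of Mir138 and Mir219a are uncertain, because the same mature sequence is made at another locus. Choroid plexus and ciliated cell markers went the other way, at 3951 and 1189 CPM, with 4 of the 5 tested genes, of 7 listed, higher in replicate 1. Immune markers summed to 1136 and 930 CPM, with 2 of 4 higher in replicate 1 and the others not past the test. In these bulk libraries fewer cells of a type and less RNA per cell cannot be told apart.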

How the data were processed

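For each library the authors deposited a table of raw read counts for microRNA genes, made on mm10 (GRCm38) with M21 per an accompanying text file. Which aligner and counter were used is not given in the sources used here. The 3 count columns are unstranded and per strand, and of the strand columns the one with more counts was used as sense. All 2202 identifiers matched M21. CPM used the sense total over genes, without the lines that name no gene, which held 63.9% and 63.6% of reads.

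With 1 group no contrast exists, so each gene's 2 counts were compared by an exact binomial test, two-sided, with TMM-scaled sizes (edgeR 4.0.16, R 4.3.3) giving the null share, where counts summed to 20 or more, with Benjamini-Hochberg adjustment at 0.05. Intervals are exact Clopper-Pearson at 95%, and a count of 0 was read as up to 3 counts. This test was first tried on simulated counts with known changes. Those counts varied by counting error only and used total counts as library sizes, so the trial did not cover variation between libraries or TMM scaling. Hairpins were folded with RNAfold 2.7.2, and other work used Python 3.11.15 with scipy 1.17.1 and pandas 2.3.3. Alternatives included DESeq2 1.42.0 size factors.

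The genes, lists and tests were chosen with earlier results of these data known. Named were the 3 genes, the 3 nearest to Mir191 and to Mir425 in level and those just above and below in mean, the 4 leading pairs of each kind, members of the fixed lists, overlapping genes and genes sharing a seed. Mir24-1 with Mir3074-1 was named after its values were seen. Mature microRNA sequences are RefSeq's. Alignments and signal tracks are not analysed here.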

Additional observations from a re-analysis of the deposited data

How the results depend on the processing

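Mir191 kept its direction and its call under total counts as library sizes, DESeq2 size factors, no filter, a summed count of at least 200 and the most abundant gene left out, with log2 ratios from -0.36 to -0.21, and Mir425 under these and the unstranded column, from -0.54 to -0.40. Mir191 had no value in the unstranded column, where its level was 0 CPM. With every read of a library as its size, the mean levels were 3578 CPM for Mir191 and 332 CPM for Mir425, by the construction of the denominator. With the most abundant gene left out of the total, Mir191 stood at 10996 CPM. Gm24083 stayed at 0 under every alternative run. Over pairs with a summed count of at least 200, 0.00850% of sense counts were kept without strand. The count of genes called ranged from 239 of 273 tested, with a summed count of 200 or more, to 299 of 788 tested with no filter, against 292 of 450, so the share called fell below that of uncalled genes with no filter. With the most abundant gene left out, 135 were higher and 153 lower in replicate 1. The count was 286 of 450 with p taken as the doubled smaller tail, which, like pairs outside chromosome 12 and subsets of the qPCR list, was added after seeing the data. Total counts shifted every log2 ratio by 0.12. The reference list's median absolute ratio was 0.26 among members with a mean of at least 500 CPM, against 0.36 for all genes at that level. No paired analysis was possible because there is 1 group. Depth limits Gm24083 to the floors and intervals given, and 2 libraries give no estimate of the spread among other pools.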
